A study of Mus musculus with 11 samples.

Results

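Myelin is the lipid-rich membrane that oligodendrocytes wrap around axons in the central nervous system, where it insulates them and lets impulses travel fast. Its compact layers are held together by basic proteins, its outer and inner faces carry adhesion proteins of the immunoglobulin family, and its lipids include galactosylceramide, which oligodendrocytes make in large amounts. Genes for these parts are used mainly by mature oligodendrocytes in the brain. In hippocampal CA1, such cells lie mainly in the fibre layers above and below the pyramidal neurons.

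The 9 genes described here are Mbp, Mobp, Mag, Mog, Cnp, Mal, Ugt8a, Opalin and Ermn, chosen by name as markers of myelin and mature oligodendrocytes, out of 48709 gene identifiers counted in every library. All 9 were found and all 9 passed the filter on low counts, which left 17293 genes to test. RNA came from the CA1 field of the mouse hippocampus at 3 months of age, in 6 libraries of CamkdeltaC transgenic mice and 5 of littermate controls. The transgene encodes CamkdeltaC, one of the splice variants of a calcium-activated kinase, CaMKII delta, and its promoter is one of heart muscle, so these mice serve as a model of heart failure and the CA1 cells carry the transgene without being its target. The study's title ties a failing heart to impaired memory, and the question here is which CA1 transcripts differ between the genotypes. Males and females were both used, but the sex, litter and batch of a library are not labelled, and no label says that each library is a separate animal, so p-values measure the spread between these libraries, which may be technical in part.

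Depth was 24403918 to 34153726 counts in transgenic libraries and 31679533 to 36898689 in controls 1 to 4, while control 5 was shallower, with 14263784. Camk2d, the gene of the transgene, averaged 67.8 ± 36.7 CPM (the usual scaling of counts to a common library total) in transgenic libraries and 72.0 ± 18.6 CPM in controls (SD, n = 6 and 5), with an edgeR adjusted p of 0.873. The 9 myelin genes were deeply covered in every library, with between 222 counts for the lowest value of Opalin and 91508 for the highest value of Mbp, so counting error was small beside the differences between libraries. CA1 neuron markers were present in both genotypes. Of the markers of Schwann cells, which make myelin outside the brain, Pmp2 had 0 counts in every library. Prx and Egr2, on the same list but also used by other cells, averaged 5.64 and 6.31 CPM in transgenic libraries and 5.24 and 3.75 CPM in controls and were not called.

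None of the 9 genes was called as different between the genotypes, at an adjusted p under 0.05. The test was the edgeR quasi-likelihood test with Benjamini-Hochberg adjustment over all genes tested. Of all 17293 genes, 17.9% were called (7.41% higher and 10.5% lower in transgenic mice). Single libraries moved this background of 3094 genes, which was 1670 without transgenic 1, 1285 without transgenic 2, 1480 without transgenic 3, 4712 without transgenic 6, 1835 without control 1, 1572 without control 3, 1155 without control 4 and 1289 without control 5. For 7 of the 9 the fold change was above 0, and for Ugt8a and Ermn it was below 0, where 8910 of all 17293 genes were above 0. At an unadjusted p under 0.05 Mbp and Cnp passed, 2 of 9, where 34.7% of all genes did. DESeq2 called 0 of 9 against 22.5% of all genes, and limma voom 0 of 9 against 27.6%. In no member were the genotypes free of overlap, where 7.77% of all genes were. The median log2 fold change of the 9 was 0.29, against 0.01 over all genes. None of the 9 was listed in the authors' deposited tables of 1780 genes higher and 2014 lower. In bulk tissue a difference in the number of oligodendrocytes and one in RNA per oligodendrocyte cannot be told apart, here or below.

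The levels of the members span a wide range. Per kilobase of exon, Mbp stood highest, at 301 ± 58.8 CPM per kb in transgenic libraries and 234 ± 53.9 CPM per kb in controls (SD, n = 6 and 5 here and below). Cnp had 89.1 ± 15.2 and 69.7 ± 15.8 CPM per kb in transgenic and control libraries, and Mobp 88.1 ± 19.7 and 77.7 ± 20.7 CPM per kb, and Cnp was the higher of the pair in 4 of 6 transgenic libraries and 1 of 5 controls. Mal followed with 63.9 ± 13.0 CPM per kb in transgenic libraries and 55.7 ± 14.4 in controls. Mag had 45.6 ± 9.47 CPM per kb in transgenic libraries and 35.4 ± 8.72 in controls, and Mog 33.2 ± 7.40 in transgenic libraries and 27.0 ± 7.05 in controls. A gap set Mog apart from the 3 lowest genes. Ermn stood at 11.2 ± 3.48 CPM per kb in transgenic libraries and 12.5 ± 2.61 in controls, Ugt8a at 9.71 ± 3.22 and 10.99 ± 2.24, and Opalin at 7.37 ± 1.61 and 5.92 ± 1.86. From Cnp down to Mog, and from Ermn to Ugt8a, the ranges of mean ± SD of neighbours overlapped in both genotypes, but these ranges are of levels that moved together. With these lengths the order within a library was steady. Apart from Cnp and Mobp, each gene stood above the next in 11 of 11 libraries, Ermn above Ugt8a and Ugt8a above Opalin included. Each gene was divided by the length of all its annotated exons, the same in every library. The longest transcript is shorter in some genes, at 3286 against 6849 bases for Mobp and 3762 against 4536 for Ugt8a. Division by another length could change the order of neighbours.

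Promoters of these genes are shown because the members moved together across libraries, as described below. The sequences are from RefSeq on GRCm38.p6, from a table in which 8 of the 9 genes were matched, and run from 250 bases before to 50 after the start of transcription. Capitals mark matches, on either strand, to CTGGNAC, the kind of site bound by MYRF, the factor that switches on myelin genes, and to ACAANG, the kind bound by SOX proteins such as SOX10. Mag (chr7:30914814-30915113, minus strand, the first of its 3 listed starts) and Mobp (chr9:120149492-120149791, plus strand) stand for the 7 genes that kept closest together, and Ugt8a (chr3:125938603-125938902, minus strand) and Ermn (chr2:58052815-58053114, minus strand) are the pair that ran apart.
Mag: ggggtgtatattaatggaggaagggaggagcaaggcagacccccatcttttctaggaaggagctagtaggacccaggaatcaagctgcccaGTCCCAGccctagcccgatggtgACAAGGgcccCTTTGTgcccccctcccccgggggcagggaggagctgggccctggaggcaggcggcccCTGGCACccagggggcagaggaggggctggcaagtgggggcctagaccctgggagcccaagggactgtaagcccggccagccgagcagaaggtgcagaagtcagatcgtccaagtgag
Mobp: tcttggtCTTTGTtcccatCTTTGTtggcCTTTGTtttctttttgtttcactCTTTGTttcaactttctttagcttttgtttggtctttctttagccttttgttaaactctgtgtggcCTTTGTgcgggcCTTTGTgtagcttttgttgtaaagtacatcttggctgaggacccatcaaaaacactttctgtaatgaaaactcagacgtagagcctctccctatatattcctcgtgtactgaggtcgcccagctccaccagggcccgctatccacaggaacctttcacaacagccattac
Ugt8a: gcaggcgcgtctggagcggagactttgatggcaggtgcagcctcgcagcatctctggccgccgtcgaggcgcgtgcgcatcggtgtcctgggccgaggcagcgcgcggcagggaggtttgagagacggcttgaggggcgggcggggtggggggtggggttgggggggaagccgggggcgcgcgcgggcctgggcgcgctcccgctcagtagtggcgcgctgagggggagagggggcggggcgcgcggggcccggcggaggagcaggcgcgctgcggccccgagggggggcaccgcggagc
Ermn: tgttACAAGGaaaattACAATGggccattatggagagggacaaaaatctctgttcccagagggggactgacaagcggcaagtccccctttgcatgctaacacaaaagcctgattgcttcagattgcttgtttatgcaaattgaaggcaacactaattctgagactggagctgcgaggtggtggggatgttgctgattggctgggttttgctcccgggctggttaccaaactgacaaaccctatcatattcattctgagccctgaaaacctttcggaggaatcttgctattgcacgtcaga
The Mag window held 2 matches to CTGGNAC and 2 to ACAANG, and Mobp 6 to ACAANG and 0 to CTGGNAC. Neither motif was found in the Ugt8a window, which is 78.3% GC, nor in that of Mal. In Ermn, ACAANG matched 2 times and CTGGNAC 0. Cnp held 2 matches to CTGGNAC and 1 to ACAANG, Mog 1 and 1, and Opalin 1 and 2. No printed match overlaps another. Of all 32851 promoter windows of this length, 19.3% held CTGGNAC and 41.2% held ACAANG. A match is a run of letters and not a shown binding site.

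Among the proteins of compact myelin, Mbp (myelin basic protein, which binds the inner faces of the membrane to each other) had the largest counts and ranked 19 by mean level among all genes tested. It lies on chromosome 18, 82475146 to 82585637 (GRCm38, plus strand). Transgenic libraries ran from 1951 through a median of 2601 to 3159 CPM, and controls 1 to 5 had 2236, 2358, 2344, 1386 and 1606 CPM. Of the transgenic libraries, 4 were above the highest control, and 2 controls were below the lowest transgenic library. The log2 fold change was 0.36 ± 0.16 (SE, 95% interval 0.01 to 0.71), with an edgeR adjusted p of 0.129 and an unadjusted p of 0.0423. Mobp (myelin-associated oligodendrocyte basic protein, a small abundant protein of central myelin) lies on chromosome 9, 120149707 to 120181484. It had 427, 653 and 745 CPM as lowest, median and highest transgenic value, and 618, 579, 692, 351 and 422 CPM in controls 1 to 5. Its fold change was 0.18 ± 0.19 on the log2 scale (edgeR adjusted p = 0.521), and 3 of the 5 controls lay inside the transgenic range.

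Mal, a small proteolipid that helps carry membrane to the myelin sheath (chromosome 2, 127633226 to 127656695), took the same course. Its transgenic values were 131, 190 and 214 CPM at the lowest, median and highest, against 183, 170, 196, 106 and 119 CPM in controls 1 to 5. Controls 4 and 5 lay below every transgenic library, and 3 transgenic libraries lay above every control. The log2 fold change of Mal was 0.20 ± 0.17 (edgeR adjusted p = 0.448).

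Both surface proteins of the immunoglobulin family leaned the same way. Mag (myelin-associated glycoprotein, on the face of myelin next to the axon; chromosome 7, 30899176 to 30914873) spanned 130 to 231 CPM in transgenic libraries with a median of 192, while controls 1 to 5 had 158, 188, 155, 94.3 and 125 CPM. Its log2 fold change, 0.37 ± 0.17, was the largest of the 9 and missed the threshold (edgeR adjusted p = 0.148). Mog (myelin oligodendrocyte glycoprotein, on the outermost face of the sheath; chromosome 17, 37010743 to 37023398) spanned 38.3 to 68.3 CPM in transgenic libraries with a median of 59.5, and had 49.5, 58.7, 54.3, 29.8 and 37.4 CPM in controls 1 to 5. For Mog the fold change was 0.29 ± 0.18 (edgeR adjusted p = 0.275). In each of the pair, 3 transgenic libraries stood above every control and 2 controls below every transgenic library.

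Cnp and Ugt8a encode enzymes. Cnp, a cyclic nucleotide phosphodiesterase that keeps cytoplasm-filled channels open in the sheath (chromosome 11, 100574904 to 100591729), had 240, 335 and 387 CPM at the lowest, median and highest transgenic value and 265, 331, 276, 182 and 216 CPM in controls 1 to 5. It had the smallest edgeR adjusted p of the 9, 0.112, at a log2 fold change of 0.35 ± 0.15. Without control 2 its edgeR adjusted p was 0.0416, at a log2 fold change of 0.47, and this was the single case among the alternatives tried in which a member passed. The exons of Cnp share 154 bases with Dnajc7 on the other strand, and reads there cannot be assigned because the library kit does not mark strand. Ugt8a, the ceramide galactosyltransferase that makes galactosylceramide (chromosome 3, 125865271 to 125938619), ran from 24.4 through a median of 42.2 to 61.7 CPM in transgenic libraries, against 52.2, 56.8, 61.4, 37.2 and 41.7 CPM in controls 1 to 5. Here 2 transgenic libraries lay below the lowest control and 1 above the highest. Its log2 fold change was -0.18 ± 0.21 (edgeR adjusted p = 0.573).

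Ermn and Opalin are both oligodendrocyte proteins of the mature cell, ermin on the actin skeleton of its processes and opalin a transmembrane protein. Ermn (chromosome 2, 58045113 to 58052864) kept company with Ugt8a, with 23.7, 38.8 and 56.6 CPM at the lowest, median and highest transgenic value and 50.2, 49.3, 56.6, 33.8 and 37.4 CPM in controls 1 to 5. The highest transgenic library and the highest control were level at this precision, 2 transgenic libraries lay below the lowest control, and the log2 fold change was -0.16 ± 0.20 (edgeR adjusted p = 0.605). Ermn shares 237 exon bases with Galnt5 on the other strand, a gene with 53 counts over all libraries. Opalin (chromosome 19, 41061710 to 41077113) went with the larger set, at 13.3, 23.4 and 25.4 CPM at the lowest, median and highest transgenic value and 19.4, 24.1, 18.9, 9.32 and 15.6 CPM in controls 1 to 5. Its log2 fold change was 0.31 ± 0.21 (edgeR adjusted p = 0.316). A two-sided exact permutation test of the difference in mean log2 CPM, over 462 arrangements, gave unadjusted p from 0.0779 (Cnp) to 0.465 (Ermn) across the 9 genes.

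**Figure D1:**
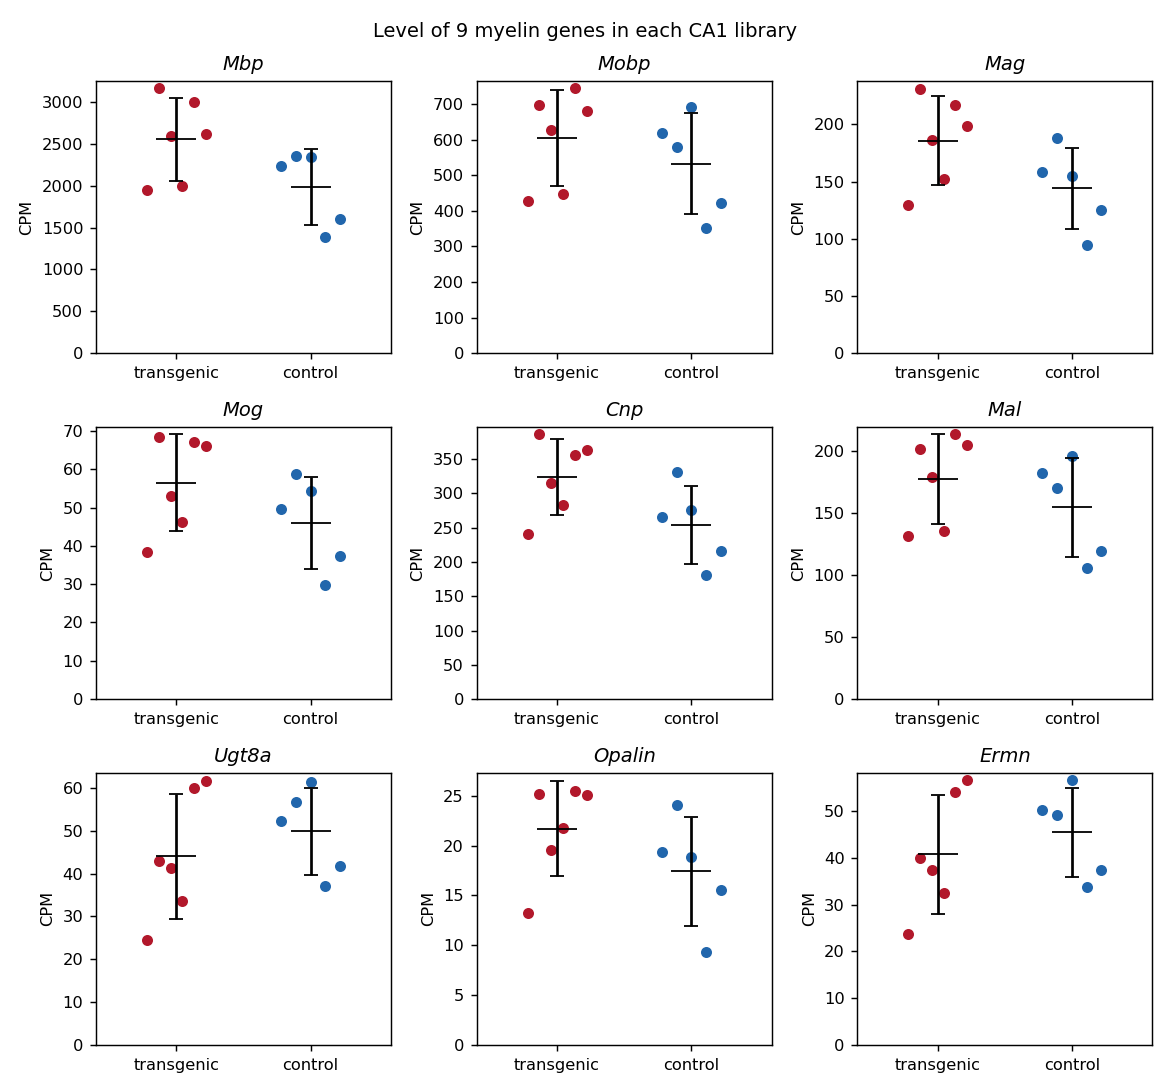
Level of each of the 9 genes in CPM, 1 point per library, transgenic (6 libraries, left) and control (5 libraries, right), with the mean and SD as bars. Genotypes overlap in every panel, and controls 4 and 5, the rightmost points, are the low controls throughout.

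The members differed widely from library to library within each genotype. Within a genotype the SD of log2 CPM was 0.37 in the median member, against 0.11 in the median of 8700 genes with a mean log2 CPM of at least 4. Each member lay above the 90th percentile of those genes, which was at an SD of 0.22. Cnp, the least variable member, had an SD of 0.29 (percentile 96.3) and Opalin, the most variable, 0.44 (percentile 99.4). Without control 4 the median SD of the members was 0.32.

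The low libraries were largely the same ones from gene to gene. The 9 genes together summed to 2978 to 4851 CPM in transgenic libraries and 2228 to 3853 CPM in controls, or 0.298% to 0.487% and 0.218% to 0.385% of all counts. On average over the members, log2 CPM deviated from the gene's own mean by -0.45 in transgenic 1 and -0.17 in transgenic 4, and by 0.31, 0.08, 0.40 and 0.35 in transgenic 2, 3, 5 and 6. In controls 4 and 5 the deviations were -0.64 and -0.34, and in controls 1, 2 and 3 they were 0.08, 0.20 and 0.17. Not one member stood above its own mean in transgenic 1, control 4 or control 5, and all 9 did in transgenic 5, transgenic 6 and control 2. Each genotype thus held low and high libraries, 2 low of 6 in transgenic mice and 2 low of 5 in controls.

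**Figure D2:**
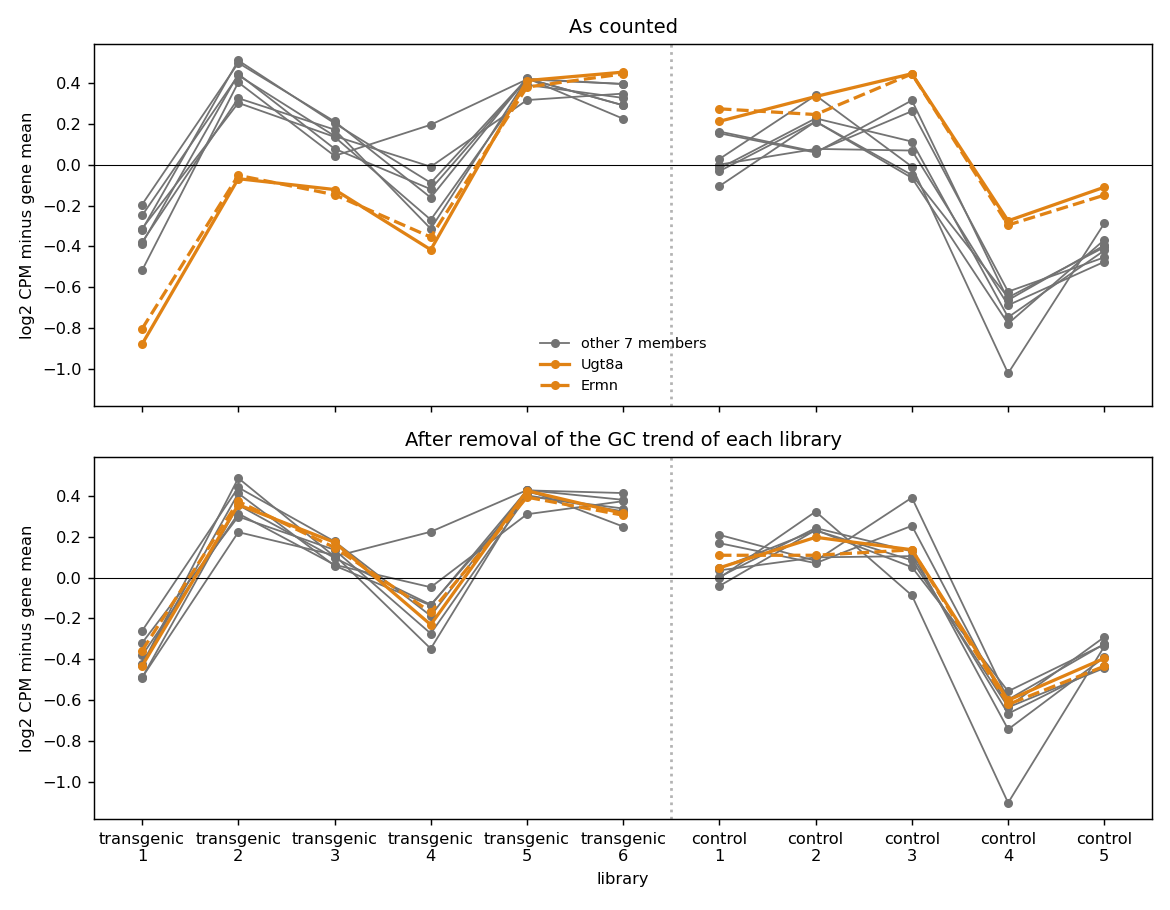
Deviation of each member from its own mean log2 CPM (y) in the 6 transgenic and 5 control libraries (x), as counted (top) and after each library's GC trend was removed (bottom), with Ugt8a and Ermn in orange and the other 7 in grey. Lines join the values of 1 gene for legibility; the orange lines lie apart from the grey ones at the top and run among them at the bottom.

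Over the 11 libraries, all 36 pairs of members had a positive correlation of log2 CPM. Pearson's r ran from 0.496 to 0.994 with a median of 0.872, and Spearman's rho from 0.491 to 0.982 with a median of 0.845. By a permutation test of 100000 resamples with Benjamini-Hochberg adjustment over the 36 pairs, 28 pairs passed by r and 28 by rho. With the 2 libraries farthest from the median of the first-listed gene left out of each pair, r ran from 0.315 to 0.995 with a median of 0.844. The libraries left out thus depended on the order in which the genes were listed. The points share libraries, and so depth and dissection. When genotype means were first subtracted, r was 0.792 to 0.995 (median 0.893), and within the 6 transgenic libraries alone it was 0.742 to 0.999 (median 0.912). The 5 controls are too few for a correlation of their own. Mobp with Mal (r = 0.994), Mag with Cnp (r = 0.986) and Mbp with Mag (r = 0.972, rho = 0.982) were among the closest pairs.

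Ugt8a and Ermn were as close to each other as any pair (r = 0.994, rho = 0.973, permutation adjusted p = 7.2e-05) and stood off from the rest. This pair was singled out after its values were seen. Among the other 7 genes, the 21 pairs had r of 0.825 to 0.994, and each of these pairs passed, with permutation adjusted p of 7.2e-05 to 0.00283. In the 14 pairs of Ugt8a or Ermn with one of those 7, r was 0.496 to 0.760 with a median of 0.595, and 6 of the 14 passed. The lowest was Mbp with Ugt8a, at r = 0.496 (permutation adjusted p = 0.123).

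**Figure D3:**
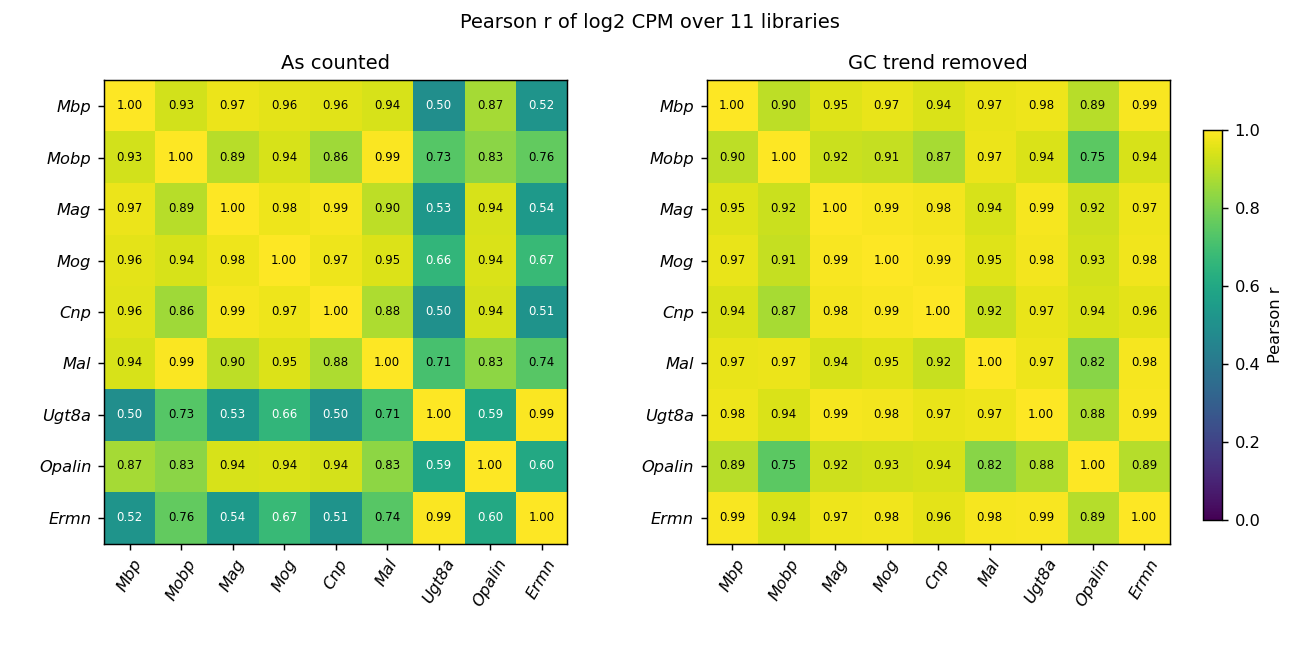
Pearson's r of log2 CPM over 11 libraries for each pair of the 9 genes, as counted (left) and after removal of each library's GC trend (right), with r printed in each cell and coloured from 0 to 1. As counted, the Ugt8a and Ermn rows hold the low values, from 0.496, and after removal their r with other members is 0.877 or above.

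These 2 genes share the most AT-rich transcripts of the group. The longest annotated transcripts of Ugt8a and Ermn are each 38.0% GC, with Opalin next at 45.8% and Mag the highest at 57.6%. In all 9 genes the 3′ untranslated region was poorer in GC than the coding sequence, and in this pair both parts were the lowest of the 9. In Ugt8a the coding sequence is 44.6% GC and the 3′ untranslated region 34.7%, and in Ermn they are 45.7% and 35.2%. In Mag they are 58.4% and 57.4%, and in Mal, the next lowest in the 3′ untranslated region, 53.2% and 43.6%. At the promoters shown above the order was another one, with the Ugt8a window at 78.3% GC and that of Ermn at 47.0%, so the likeness of the pair was seen in the transcript and not in this window.

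Libraries differed in how counts followed GC content across all genes. Per 10 points of transcript GC, log2 CPM deviated by 0.27, 0.26, 0.18, 0.10, 0.02 and -0.06 in transgenic 1 to 6, and by -0.12, -0.06, -0.20, -0.22 and -0.16 in controls 1 to 5. The slopes of the genotypes touched at transgenic 6 and control 2 and otherwise kept apart, so GC slope and genotype cannot be told apart over most of these libraries. The gap between Ugt8a and Ermn and the other 7 genes moved with the slope. In transgenic 1 to 6 the mean of the pair minus the mean of the other 7, in centred log2 CPM, was -0.51, -0.48, -0.28, -0.28, -0.01 and 0.12, and in controls 1 to 5 it was 0.22, 0.12, 0.36, 0.45 and 0.27. After the GC trend of each library was removed by a smooth curve over all genes, the gap was -0.07 to 0.05 in transgenic libraries and -0.05 to 0.09 in controls. What set the slopes of the libraries was not tested.

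**Figure D4:**
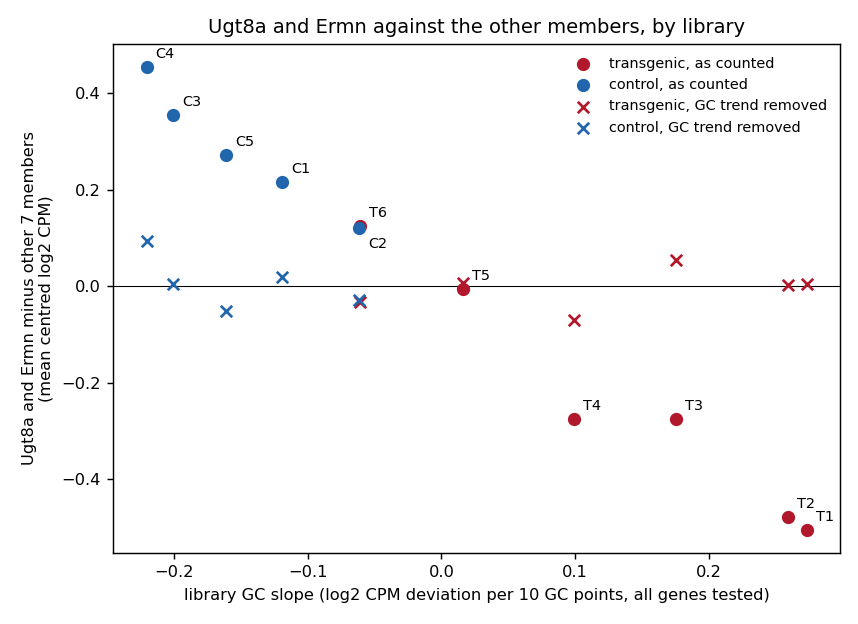
Mean of Ugt8a and Ermn minus the mean of the other 7 members (y, centred log2 CPM) against the GC slope of each library (x, log2 CPM per 10 points of GC over all genes tested), for transgenic (red, T1 to T6) and control (blue, C1 to C5) libraries; crosses are the same libraries with the GC trend removed. The dots run from -0.51 at the steepest positive slope to 0.45 at the steepest negative one, while the crosses stay between -0.07 and 0.09.

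Removal of the GC trend drew the 9 genes into one course. The 14 pairs of Ugt8a or Ermn with another member then had r of 0.877 to 0.989, and all 36 pairs 0.748 to 0.991 with a median of 0.953. Fold changes were then above 0 in 9 of 9 genes, where 8511 of all 17293 genes were above 0. The 9 moved together across libraries, so their signs do not count as 9 separate results. Their log2 fold changes lay between 0.08 for Mobp and 0.40 for Opalin. Ugt8a, at 0.22, and Ermn, at 0.25, were both reversed in sign against the values as counted. The median of the 9 was 0.23, against -0.003 over all genes. None passed, with edgeR adjusted p of 0.351 to 0.874, where 1.98% of all genes were called. The spread between libraries stayed, at a median SD of 0.35 for the members against 0.09 for the genes they were set beside.

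**Figure D5:**
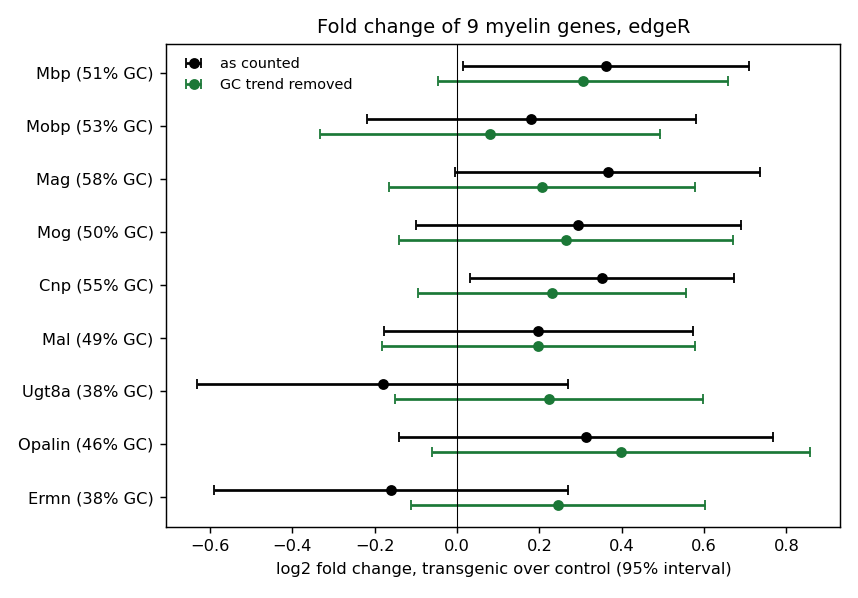
Log2 fold change of each gene, transgenic over control, from edgeR with its 95% interval, as counted (black) and with the GC trend removed (green), with the GC content of the transcript beside the name. As counted, Mbp and Cnp have intervals just above 0 and Ugt8a and Ermn lie below 0; with the GC trend removed all 9 lie above 0 and each interval spans it.

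The genes whose levels followed the members most closely included known oligodendrocyte genes. Genes were ranked by Pearson's r, over 11 libraries, with the mean centred log2 CPM of the 9 members, among 12547 genes with a mean log2 CPM of at least 1. Pde8a, a cyclic AMP phosphodiesterase, came first (r = 0.992; 21.9 ± 3.58 CPM in transgenic libraries and 20.2 ± 3.76 in controls), then Gab1, an adaptor of growth factor receptors (r = 0.985; 35.1 ± 4.81 and 32.6 ± 4.75 CPM). Cldn11, the claudin of the tight junctions in central myelin, followed with r = 0.973. Next were Qdpr (0.971), Gpr37 (0.967), Bcas1 (0.966), Gjb1 (0.966, a gap junction protein of oligodendrocytes), Litaf (0.964), S1pr5 (0.963, a sphingosine phosphate receptor) and Cers2 (0.959, a ceramide synthase for very long chains). Of these 10, 6 were on one of the lists of oligodendrocyte or lipid genes written for this comparison, and of the first 30, 16 were.

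Other lists of genes around myelin are given below beside the background of 7.41% of all genes called higher and 10.5% lower. None of their calls was made with the GC trend removed. Of 35 other genes of mature myelin 1 was called higher and 0 lower, with a median log2 fold change of 0.16. Of these 35, 31 were above 0, where 8910 of all 17293 genes tested were. The median r of the 35 with the members' mean was 0.889. The called gene was Gsn, gelsolin, which cuts actin filaments, at 66.4 ± 7.17 CPM in transgenic libraries and 51.8 ± 7.93 CPM in controls (log2 fold change 0.36 ± 0.10, edgeR adjusted p = 0.0301). Of 11 transcription factors of the lineage 1 rose, Sox10, the factor that oligodendrocytes need to mature (56.7 ± 7.88 CPM in transgenic libraries and 42.5 ± 8.31 CPM in controls; log2 fold change 0.41 ± 0.12, edgeR adjusted p = 0.0372). Among 10 genes of newly formed oligodendrocytes, Sirt2, a deacetylase found in myelin, was the 1 called, higher (log2 fold change 0.25 ± 0.07, edgeR adjusted p = 0.0265). Its exons share 42 bases with Nfkbib on the other strand.

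Genes of oligodendrocyte precursors, the dividing cells that give rise to oligodendrocytes, ran both with and against the members across libraries. Their r with the members' mean was -0.67 for Tnr, the lowest, and 0.32 for Neu4, the highest, with a median of -0.02. Of 10 genes 0 were called higher and 3 lower, and the median log2 fold change was -0.11. Tnr, the matrix protein tenascin-R, had 263 ± 21.6 CPM in transgenic libraries and 325 ± 46.9 CPM in controls (log2 fold change -0.31 ± 0.09, edgeR adjusted p = 0.0353). Pcdh15, a protocadherin, had 23.8 ± 6.08 and 33.0 ± 4.67 CPM (-0.47 ± 0.15, adjusted p = 0.0452), and Sox6, which holds precursors back from maturing, 27.9 ± 2.21 and 32.6 ± 1.75 CPM (-0.22 ± 0.06, adjusted p = 0.0334). Pdgfra and Cspg4, the usual surface markers of these cells, were not called, at log2 fold changes of -0.09 and 0.10. Tnr shares 443 exon bases with an antisense transcript.

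The supply of lipid for myelin was looked at through 2 lists. Of 19 genes of cholesterol synthesis, 5 were called higher and 1 lower, with a median log2 fold change of 0.13. Mvk, mevalonate kinase, led them, at 21.8 ± 2.16 CPM in transgenic libraries and 16.7 ± 2.26 CPM in controls (log2 fold change 0.39 ± 0.10, edgeR adjusted p = 0.0199 by the same fit). Fdft1, squalene synthase, was higher too (0.23 ± 0.06, adjusted p = 0.0221), and shares 774 exon bases with Ctsb. The genes of this list followed the members weakly, at a median r of 0.314. Of 10 genes of sphingolipid and fatty acid synthesis or breakdown 1 was called, Galc, the lysosomal enzyme that breaks down the galactosylceramide that Ugt8a makes, which was lower as counted (29.9 ± 1.76 CPM in transgenic libraries and 33.9 ± 1.99 CPM in controls; log2 fold change -0.18 ± 0.06, edgeR adjusted p = 0.0462). Its transcript, at 38.3% GC, is as AT-rich as that of Ugt8a, and with the GC trend removed its log2 fold change was 0.26 (adjusted p = 0.115).

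A further list held 10 genes of contact between axon and glia, at the paranode, where the edge of the myelin meets the axon, or elsewhere. Of these 10, 1 was called higher and 4 lower. Cntn1, contactin on the axon side, had the smallest p, at 333 ± 24.6 CPM in transgenic libraries and 409 ± 16.5 CPM in controls (log2 fold change -0.30 ± 0.06, edgeR adjusted p = 0.0119). Adam22 (-0.23 ± 0.06, adjusted p = 0.0265) and Cadm1 (-0.36 ± 0.10, adjusted p = 0.0271), both of them adhesion proteins that neurons also make, were lower by the same test. Markers of other cells in CA1 were called in some lists, 5 of 10 higher for microglia, 3 higher and 1 lower of 10 for astrocytes, 2 of 10 lower for endothelial and mural cells and 2 of 10 higher for interneurons, and in none of the 10 genes of CA1 pyramidal neurons or of the 10 tested genes of the dentate gyrus, CA3 and CA2. Their median r with the members' mean lay between -0.354 (endothelial and mural) and 0.243 (astrocytes). Summed levels overlapped between the genotypes for microglia (370 to 484 CPM in transgenic libraries, 332 to 403 in controls) and for pyramidal neurons (1829 to 2279 and 1670 to 2083 CPM). The part of other cell types in the myelin values was not tested.

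The 15 other lists and the 9 members together held 188 genes, some of which missed the low-count filter. Over the 15 lists, 31 genes were called as counted, and 0 with the GC trend removed. Of all genes tested, 17.9% were called as counted and 1.98% with the GC trend removed. The number of list genes called was 16 without transgenic 1, 6 without transgenic 2, 9 without transgenic 3, 10 without control 1, 12 without control 3, 6 without control 4 and 6 without control 5, and it was 48 without transgenic 6. Calls over all genes moved in the same direction without each of these libraries, as given above. For the 9 myelin genes the count was 0 in each of these fits.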

How the data were processed

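Gene expression was measured by RNA-seq in 6 transgenic and 5 control libraries of mouse CA1. The authors deposited raw counts per Ensembl gene for each library. Per the labels' protocols, libraries were made with the unstranded TruSeq RNA kit and read as single ends of 50 bases. STAR 2.5.2b, Subread 1.5.1, featureCounts and FastQC 0.11.5 on build mm10 are named per the submitters' processing notes, with no settings. Further files the authors deposited are tables of called genes, with log2 fold changes, p-values and a per-library signal, and these were used to look up the members. The chi-square of pairs of libraries within a genotype, divided by its degrees of freedom, was 6.26 to 53.4, and each library counted as 1 sample.

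Symbols came from GENCODE M21, where 48349 identifiers had a name. Genes were kept with filterByExpr, scaled with TMM and tested with edgeR 4.0.16 in R 4.3.3 (quasi-likelihood F test, no covariate), with p adjusted by Benjamini-Hochberg and a call below 0.05. CPM used TMM-scaled totals and log2 CPM a prior count of 2. The GC trend was a lowess curve (span 0.3) of log2 CPM deviations on the GC content of the longest transcript, entered as an offset, with a GC value for 17246 genes. Other alternatives were DESeq2 1.42.0, limma voom 3.58.1 with sample weights, 1 surrogate variable from sva 3.50.0, the replicate number as a block, Xist as a covariate, other scalings and filters, and leaving out each library. The procedure was tested on simulated data, with the same spread set for every gene and the same GC slope for all libraries of a genotype. That test therefore does not cover genes as variable as the members. Genes named beside the members were up to 3 called genes per list with the smallest p, the 2 of highest level of lists with none called, and the 10 genes most like the members. Some of these are given in counts only or not reported here. The members and lists were chosen with earlier results of these data known.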

Additional observations from a re-analysis of the deposited data

Results flagged for a closer look

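Of 98 groups of libraries looked at for the named genes, 6 held a library that stood apart from the rest, by a gap to its neighbour above the share of the group's range that Dixon's test allows (0.625 for 6 libraries and 0.710 for 5). Chance flags about 1 in 20 groups. None of the 9 myelin genes was among them. Sox6 was at 35.6 CPM in control 5, and the other controls at 31.5 to 32.4. Mlc1, an astrocyte gene, was at 246 CPM in transgenic 2, and the other transgenic libraries at 199 to 215. Foxj1, a gene of ciliated ependymal cells, was at 2.31 CPM in transgenic 4, where the others had 4.01 to 4.88, and at 8.12 CPM in control 3, where the others had 3.07 to 4.14. Mpped1, a pyramidal neuron gene, was at 348 CPM in control 3, and the other controls at 423 to 444. Rgs14, a marker of CA2, was at 69.0 CPM in transgenic 6, and the others at 103 to 117.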

How the results depend on the processing

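The count of myelin genes called was 0 under each of the 12 other settings and 0 to 1 with a library left out, the 1 being Cnp without control 2. Ugt8a and Ermn reversed with the GC trend removed, to log2 fold changes of 0.22 and 0.25, and with GC and length trends removed, to 0.22 and 0.23, without passing. Galc reversed likewise, to 0.26 and 0.33, and Slc32a1 to -0.018 with both trends removed. Calls over all genes, 3094, became 4774 with limma voom, 342 without the GC trend, 294 without GC and length trends, and 1155 to 4712 with a library left out. Of them 41.4% were higher in transgenic mice, against 58.5% without the GC trend and 68.0% without both. Genes called on the other lists, 31, became 47 with limma voom, 50 with 1 surrogate variable, 14 without the length trend, 0 without the GC trend, 0 without both, and 6 to 48 with a library left out. Why calls fell with the trends removed was not tested. Correlated pairs numbered 26 to 30 of 36 with a library left out. The median SD of the members was 0.32 to 0.39 with a library left out, the lowest without control 4. Same-numbered libraries of the genotypes correlated at -0.18 to 0.20 in their deviations, and 1 of 5 was best with its own number. No label pairs the libraries, and 5 such values are too few to show whether a litter or batch was shared. With the replicate number as a block, 4594 genes, 50 list genes and 0 members were called. The lowest count of a member was 222, for Opalin in control 5, the shallowest library. The effect of depth on the members was not tested.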

Other observations

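The genes named here were picked out after their values were seen, and they do not stand for their lists. Across the 11 libraries, the 11 transcription factors of the lineage had a median r of 0.643 with the mean of the 9 myelin genes. The lowest of them was St18, at -0.15. For the 10 genes of newly formed oligodendrocytes the median r was 0.211, and the lowest was Cemip2, at -0.34. Myrf, the factor that switches on myelin genes, followed the mean of the 9 myelin genes at r = 0.913. It had 79.6 ± 11.2 CPM in transgenic libraries and 68.5 ± 11.5 CPM in controls (SD, n = 6 and 5; edgeR adjusted p = 0.215). Enpp6, a gene of newly formed oligodendrocytes, followed that mean at r = 0.930, with 7.08 ± 2.004 CPM in transgenic libraries and 7.26 ± 2.33 CPM in controls. Olig2, which precursors also make, followed less closely, at r = 0.551.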
